A study of Sus scrofa with 2 samples.

Results

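The genes named on a porcine brain cDNA array included 5 genes of the small ribosomal subunit, RPS18, RPS26, RPS29, RPS3A and RPSA. They also included TPT1, the gene of the translationally controlled tumour protein. These 6 genes were chosen by their symbols in the array's annotation, and they are 6 of the 83 genes named there. Each was printed as 1 clone in 3 consecutive spots, so that 18 of the 249 named spots, and of the 3888 spots in all, belonged to them. Both arrays compared whole brain with itself. Per the labels, total RNA (18 µg) of a female pig aged 23 days was turned into cDNA, this was split in 2, and both portions were labelled and put on 1 array to measure its background. The second array repeated the first, and whether it used the same animal or RNA is not given in the sources used here. The labels describe no treatment and no second tissue, so a log2 ratio of 0 is the value for channels that do not differ, and a ratio describes measurement error and no regulation.

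Ribosomal proteins and ribosomal RNA form the particle that reads messenger RNA into protein, and the small subunit binds the messenger and holds the place where codons are read. Messenger RNAs of ribosomal proteins and of TPT1 carry a pyrimidine tract at their start, through which growth signals regulate their translation. Such transcripts are abundant in most cells, including those of the brain, and ribosomal protein genes have often been used as internal references. A ratio of a sample with itself holds no level of a transcript. It therefore carries no information on the number of cells or on RNA per cell, and the tissue label could not be checked with it. Of 27 markers of brain cell types, 4 were among the named genes (CPE, UCHL1, MT3 and C1QB), and markers of myelin, endothelium, blood and choroid plexus were not among them.

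Each array gave 1 signed ratio per spot, read as log2 because the log base was not stated. The dyes were not given, so the sign shows which channel was brighter without naming it, and whether the sign means the same on both arrays is not known. Pearson's r between the arrays, taken as deposited, was 0.35 across spots 1 to 2595 and 0.068 over all spots. Both values are given as a description. Every comparison between the arrays below takes the signs as deposited, and for the main ones the value with array 2 turned is given beside it. Exact zeros, of which there were 544 on array 1 and 494 on array 2, were absent from the 36 values of the 6 genes. The robust SD over spots 1 to 2595, the part of the spot order that ends with the last named spot, was 0.10 on array 1 and 0.17 on array 2. Nothing states that the arrays came from separate animals, so every p-value rests only on the spread between 2 hybridisations, which may be technical. In the main limma fit over the named genes, that spread was pooled almost wholly over the genes fitted. An exact permutation test of 2 arrays against 0 (two-sided) cannot give a p below 0.5, and the tests below are therefore limma fits across all named genes or all spots.

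All 6 genes stayed close to a ratio of 1. The mean log2 ratio of a gene over the 2 arrays ranged in size from 0.0069 for RPS26 to 0.21 for TPT1, the latter a 1.16-fold difference between channels. The median size was 0.085, or 1.06-fold, and that over the 83 named genes was 0.075, or 1.05-fold. None of the 18 spots lay beyond 2-fold on either array, where 2.91% of all spots on array 1 and 3.73% on array 2 did. Most of all spots are unnamed, and among the named genes only TUBB and YWHAZ had spots beyond 2-fold. With these left out, the farthest spot of the other named genes lay at 1.53-fold, so the absence is no trait particular to the 6. The spot farthest from 0 was 1 of RPS29 on array 2, at 1.32-fold. Beyond 1.2-fold were 0 of the 18 spots on array 1 (2.01% of the named spots) and 4 on array 2 (12% of the named spots), 2 of TPT1, 1 of RPS29 and 1 of RPS3A.

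**Figure D1:**
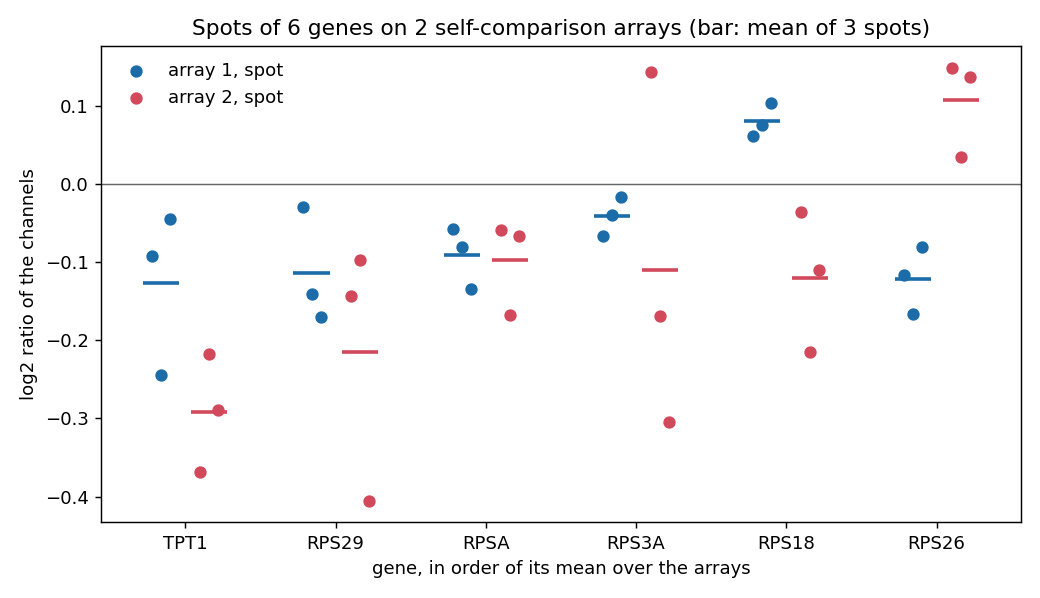
Log2 ratio of the channels (vertical axis) for each of the 3 spots of 6 genes (horizontal axis, ordered by mean) on array 1 (blue) and array 2 (red), with bars at the mean of the 3 spots. All 6 values of TPT1, RPS29 and RPSA lie below 0, and the spots of RPS18 and RPS26 lie on opposite sides of 0 on the 2 arrays.

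TPT1 (NCBI gene 397664, spots 265 to 267) encodes a small calcium-binding protein linked to growth and survival, and it had the most negative mean of the 6. Its log2 ratios were -0.092, -0.24 and -0.045 on array 1. On array 2 they were -0.37, -0.22 and -0.29. All 6 values were negative, and the arrays overlapped only through the second spot of array 1. The mean over arrays was -0.21 ± 0.12 (SD, n = 2). TPT1 held the lowest rank of the 83 genes on array 2 (rank 1) and rank 6 on array 1. In limma at 1 value per gene (the mean of its 3 spots, Benjamini-Hochberg adjustment over 83 genes) TPT1 passed the threshold with an adjusted p of 0.049. It was 1 of the 6 genes to do so, against 6.02% of the 83 in either direction and 2.41% with a negative mean. The same adjusted p was shared by all 5 genes that passed. Benjamini-Hochberg took it from the largest of their unadjusted limma p-values, 0.0029, where that of TPT1 was 0.0025. The call of TPT1 did not hold under 12 of 13 other settings. Without moderation, from its own 2 arrays alone, the limma fit gave TPT1 an unadjusted p of 0.24 (adjusted p = 0.67). The TPT1 adjusted p rose to 0.25 and 0.33 with each array centred on the named genes or on spots 1 to 2595, while its mean moved to -0.20 and -0.23, and robust eBayes kept the call at 0.042. Leaving out 1 spot of every gene, the first, the second or the third, ended it as well (adjusted p = 0.75, 0.27 and 0.18), and over these 13 settings the adjusted p ran from 0.042 to 0.99.

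RPS29 (NCBI gene 414391, spots 1492 to 1494), a small zinc-binding protein in the head of the subunit, came next. Its log2 ratios were -0.029, -0.14 and -0.17 on array 1. They were -0.14, -0.097 and -0.41 on array 2. Again all 6 values were negative, and the spots of the arrays overlapped. Of its spots, the third was the lowest on both arrays. The gene mean was -0.11 on array 1 and -0.21 on array 2, and its limma adjusted p was 0.12, with an unadjusted p of 0.016. It and TPT1 were the 2 of 6 genes with an unadjusted limma p under 0.05, where 24.1% of the 83 named genes had one. With array 2 turned these counts were 0 of 6 and 1 of 83, and without moderation 1 of 6 and 5 of 83.

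RPSA (NCBI gene 641351, spots 1684 to 1686), a subunit protein also known as the precursor of the laminin receptor, had the closest gene means on the 2 arrays as deposited. Its log2 ratios were -0.058, -0.080 and -0.13 on array 1. On array 2 they were -0.059, -0.17 and -0.066. The 2 gene means, -0.091 and -0.097, differed by 0.0066, which is 0.16 times the SD that its spots gave for such a difference. With local medians of neighbouring spots subtracted, RPSA differed by -0.052 between arrays and RPS3A by -0.041, and with array 2 turned RPSA differed by 0.19, or 4.52 times its spot SD. RPSA did not pass in limma, with an adjusted p of 0.41. Without moderation, where each gene is judged by its own 2 arrays, the limma fit gave RPSA an unadjusted p of 0.022 and a 95% interval of -0.14 to -0.052 (adjusted p = 0.57).

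RPS3A (NCBI gene 414390, spots 2308 to 2310), a protein on the side of the subunit where messenger RNA leaves, had close spots on array 1 and scattered ones on array 2. On array 1 its log2 ratios were -0.066, -0.039 and -0.016. On array 2 they were 0.14, -0.17 and -0.30. The SD over its 3 spots thus went from 0.025 to 0.23, the largest spot SD of the 6 genes on either array. Its mean, -0.075 ± 0.049 (SD, n = 2), did not pass in limma (adjusted p = 0.52).

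RPS18 and RPS26 turned sign from one array to the other, each with all 3 spots. RPS18 (NCBI gene 396980, spots 826 to 828), a protein of the head near the decoding site, had 0.062, 0.076 and 0.10 on array 1. On array 2 it had -0.036, -0.21 and -0.11. RPS26 (NCBI gene 100037997, spots 1903 to 1905), which lines the exit of the messenger channel, did the opposite, with -0.12, -0.17 and -0.081 on array 1. On array 2 its spots were at 0.15, 0.035 and 0.14. In both genes the spots of the arrays did not overlap, and the 3 spots of 1 array agreed in sign while disagreeing with those of the other. This pattern held for 2 of the 6 genes and for 7.23% of the 83 named genes, with signs as deposited. The spots of the arrays were apart, with or without a turn of sign, in these 2 of 6 genes and in 31.3% of the 83. Both means were near 0 (-0.020 ± 0.14 and -0.0069 ± 0.16, SD, n = 2), with limma adjusted p-values of 0.90 and 0.94, because the arrays cancelled. The gene means on single arrays were between 0.081 and 0.12 in size.

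For RPS18, RPS26 and TPT1 the spots of 1 array gave a narrower error than the repeat array did. Array 2 minus array 1 was -0.20 for RPS18, which was 3.76 times the SD given by its spots. For RPS26 it was 0.23, or 5.19 times, which ranked 3 among the 83 genes. TPT1 followed with -0.16, or 2.21 times. The difference exceeded 2 times the spot SD in these 3 of 6 genes and in 31.3% of the 83. For RPS29 (0.97 times), RPS3A (0.52 times) and RPSA it lay within the spot SD. These ratios rest on the sign of array 2. With it turned, RPS26 (0.31 times, rank 77) and RPS18 (0.74 times) lay within the spot SD and RPS3A was at 1.13 times, whereas TPT1 (5.62 times), RPSA and RPS29 (3.12 times) exceeded 2 times it, as did 50.6% of the 83.

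**Figure D2:**
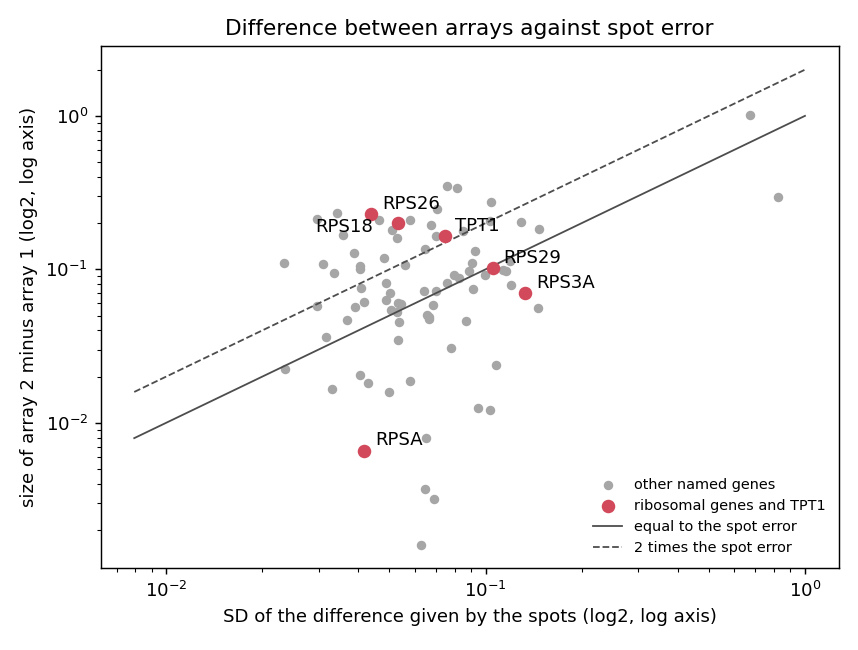
Size of the difference between the arrays (vertical axis, log2 ratio on a log axis) against the SD of that difference given by the 3 spots on each array (horizontal axis, log axis) for the 6 genes (red) and the other 77 named genes (grey), with lines at 1 and 2 times the spot SD and signs as deposited. RPS26, RPS18 and TPT1 lie above the dashed line, at 5.19, 3.76 and 2.21 times, and RPSA lies far below the solid line, at 0.16 times.

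The variation of the 6 genes was also separated into its parts. The SD between spots of 1 gene on 1 array was 0.10, the SD of a gene that was particular to 1 array 0.092, and the SD between genes that both arrays shared 0.021. For the 5 ribosomal genes alone the shared part was estimated at 0, with 0.10 between spots and 0.097 particular to an array. With array 2 turned, the array-particular and shared parts were 0.096 and 0 for the 6 genes, and 0.067 and 0.049 for the 5. Among the other 77 named genes as deposited, the parts between spots, particular to an array and shared were 0.17, 0.066 and 0.058. TUBB and YWHAZ held the largest spot SD on array 2 and on array 1, and all 6 exact zeros among the named spots. Whether these zeros are measured values is not given in the sources used here. Without TUBB and YWHAZ, the parts were 0.089, 0.071 and 0.081. These are moment estimates from 6, 5, 77 and 75 genes, given as a description and without a test. An estimate that was not above 0 was set to 0, so a part given as 0 is no measured absence. The spot SD was higher on array 2 in 5 of the 6 genes, all but TPT1, and in 81.9% of the 83. Its median over the 6 genes was 0.041 on array 1 and 0.083 on array 2, beside 0.041 and 0.090 over the 83.

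**Figure D3:**
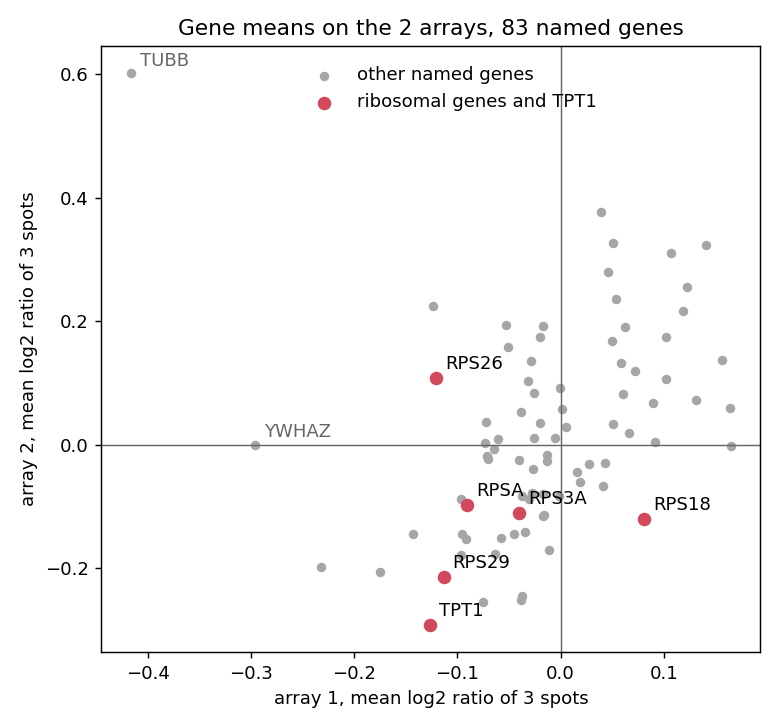
Mean log2 ratio of the 3 spots on array 1 (horizontal axis) and on array 2 (vertical axis) for 6 genes (red, labelled) and the other 77 named genes (grey). TPT1, RPS29, RPSA and RPS3A lie at the lower left, negative on both arrays, whereas RPS18 (0.081 and -0.12) and RPS26 (-0.12 and 0.11) lie on opposite sides of both lines at 0.

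Most values of the 6 genes were negative. On array 1, 15 of the 18 spots were below 0 (54.2% of the 249 named spots), and on array 2, 14 of the 18 (47.4% of the named spots). The gene mean had 1 sign on both arrays in 4 of the 6 genes, beside 68.7% of the 83. It was negative in all 4, where 39.8% of the 83 were negative on both arrays. All 6 values had 1 sign in 3 genes (37.3% of the 83), TPT1, RPS29 and RPSA, and that sign was negative (18.1% of the 83). The median gene mean was -0.10 on array 1 and -0.12 on array 2, against -0.020 and 0.0021 over the 83 named genes. With the sign of array 2 turned, which the missing dye labels allow, the medians on array 2 change sign and 2 genes, RPS18 and RPS26, instead of 4 have 1 sign on both arrays. The turn exchanges genes of 1 sign with genes of opposite signs among all 83 as well, except where a gene mean is 0. The median log2 ratio of the 48 spots nearest in number was positive in 10 of 12 cases (6 genes on 2 arrays), and negative on both arrays for RPS29 (-0.050 and -0.031). It had the sign of the gene mean for RPS29 on both arrays, for RPS18 on array 1 (0.063) and for RPS26 on array 2 (0.094). The part of the neighbouring spots in the ratios was not tested, and positive local medians were not counted over all 83 named genes. With these local medians subtracted, 10 of 12 gene means were negative, as many as before. This count was not made over the 83 named genes, so it shows no trait particular to the 6. After the subtraction TPT1 stood at -0.19 and -0.32, RPS18 at 0.018 and -0.19, and RPS26 at -0.12 and 0.013. The difference between arrays was thus 0.13 for RPS26 in place of 0.23, and -0.21 for RPS18 in place of -0.20.

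The order of the 6 means as deposited was TPT1, RPS29, RPSA, RPS3A, RPS18 and RPS26, from the most negative upward. With array 2 turned it was RPS26 (-0.11), RPSA (0.0033), RPS3A (0.035), RPS29 (0.051), TPT1 (0.082) and RPS18 (0.10). Of the neighbours in the order as deposited, RPS29 and RPSA had array values that did not overlap, by a difference in log2 ratio of 0.022 on array 1 and 0.12 on array 2. TPT1 and RPS29, RPSA and RPS3A, RPS3A and RPS18, and RPS18 and RPS26 overlapped. Of all 15 pairs, 8 kept their order on both arrays and 6 had array values that did not overlap, 4 of these with TPT1 as the lower gene. With array 2 turned these counts were 7 and 3. They were not made over all pairs of the 83 named genes, so they show no trait particular to the 6. RPS26 lay 0.20 below RPS18 on array 1 and 0.23 above it on array 2.

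The limma 95% intervals show how large a difference between channels these data allow for each gene. They take the signs as deposited and a spread pooled over the genes. The limit farther from 0 was 1.10-fold for RPS26, 1.11-fold for RPS18, 1.16-fold for RPS3A, 1.17-fold for RPSA, 1.23-fold for RPS29 and 1.27-fold for TPT1. The intervals of RPS18 (-0.15 to 0.11), RPS26 (-0.14 to 0.13), RPS3A (-0.21 to 0.058) and RPSA (-0.23 to 0.039) contained 0, whereas those of RPS29 (-0.30 to -0.031) and TPT1 (-0.34 to -0.076) did not. An interval without 0 amounts to an unadjusted limma p under 0.05, which 24.1% of the 83 had. Each interval rests almost wholly on the SD shared by the 83 genes, 0.095, which counted with 237.9 degrees of freedom in the limma moderation, beside the 1 that the arrays of a single gene add. The 2 narrowest limits belong to RPS26 and RPS18, whose arrays differed most as deposited, with SDs of 0.16 and 0.14 above the shared one. With array 2 turned, these 2 genes had the means farthest from 0 of the 6, at -0.11 and 0.10. From the 2 arrays of each gene alone, the intervals were -1.46 to 1.44 for RPS26 and -1.29 to 1.26 for RPS18. They were -1.25 to 0.84 for TPT1 and -0.81 to 0.48 for RPS29, and so contained 0. In the limma fit over all 3888 spots, 0 of the 18 spots passed (0% of all spots), and 1, the second spot of TPT1, had an unadjusted p under 0.05 (0.012), beside 10.6% of all spots. The 95% intervals of the 18 spots reached 0.071 to 0.64 to either side of the mean, with a median of 0.46, more than the size of the mean of any of the 6 genes. The interval of the second spot of TPT1, with a mean of -0.23, excluded 0.

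**Figure D4:**
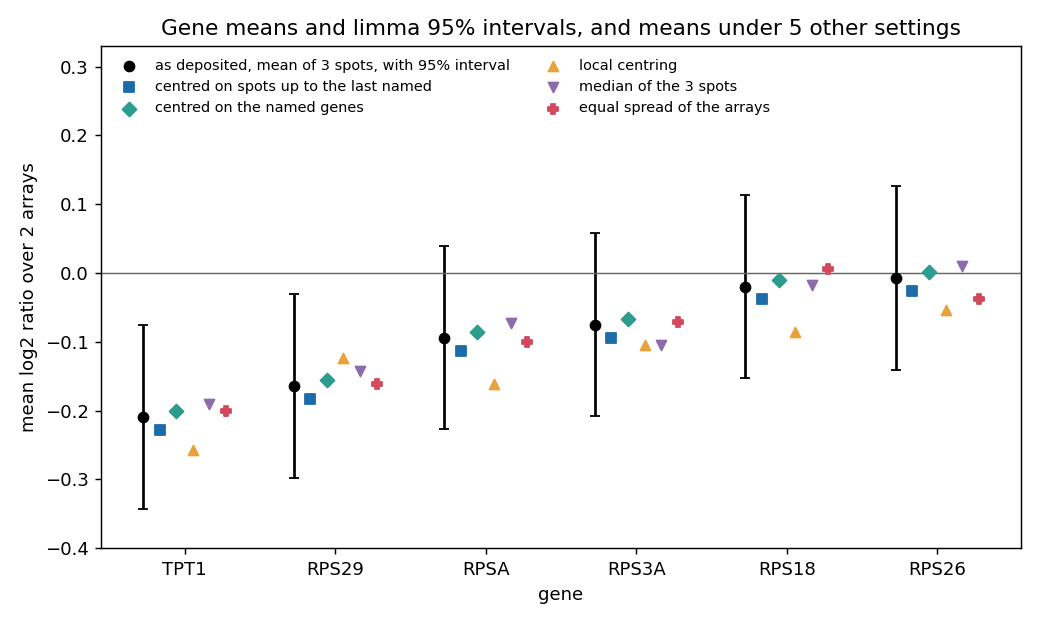
Mean log2 ratio over 2 arrays (vertical axis) of 6 genes (horizontal axis) as deposited, with the 95% limma interval (black circles and bars), and under 5 other settings (coloured symbols without intervals). The mean of TPT1 stays between -0.26 and -0.19 in these settings, whereas those of RPS18 and RPS26 lie on both sides of 0.

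Other named genes of protein synthesis included RACK1, a scaffold protein on the small subunit. EEF1G, a subunit of the factor that brings transfer RNA to the ribosome, was also named. So were RTCB, the ligase of transfer RNA splicing, and HSPA5, the chaperone that receives new proteins in the endoplasmic reticulum. Of these 4, 1 passed in limma with a positive mean, RTCB, and 0 with a negative one, beside 3.61% and 2.41% of the 83. RTCB had gene means of 0.11 on array 1 and 0.31 on array 2, opposite in sign to TPT1 (adjusted p = 0.049, 0 genes passing under the centrings that also ended the call of TPT1). RACK1 had -0.011 and -0.17 (adjusted p = 0.43), EEF1G -0.016 and -0.11 (adjusted p = 0.60) and HSPA5 -0.14 and -0.14 (adjusted p = 0.17). EPRS, which charges transfer RNA with glutamate and proline and was added after its values had been seen, had -0.028 and -0.078 (adjusted p = 0.70).

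The named genes nearest to each of the 6 were found by the distance between their gene means over the 2 arrays, with no p. RPSA lay closest of all to another gene, YWHAQ, a member of the 14-3-3 family (-0.096 and -0.088), at a distance of 0.011, and next to MT3, the brain metallothionein (-0.096 and -0.14), at 0.047. RPS3A was nearest to TNNI2, a troponin, at 0.024 and SRSF6, a splicing factor, at 0.024. RPS29 was nearest to UCHL1, a neuronal deubiquitinase, at 0.041 and to NDN (necdin) at 0.055. TPT1 had NDN at 0.064 and JPT1 at 0.097. RPS18 had SLA-1, a class I histocompatibility gene, at 0.065 and ID4 at 0.086, and RPS26 had GPX1 at 0.085 and FUT8 at 0.087. The genes nearest to RPSA, RPS3A, RPS29 and TPT1 were all negative on both arrays. Those nearest to RPS18 and RPS26 turned sign the same way as they did, as a small distance makes likely.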

How the data were processed

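The data were 2 two-colour arrays with whole brain in both channels. The authors deposited log ratios, 1 for each spot of each array, which were read as log2. The log base, dyes, direction, background correction and centring are not given in the sources used here, and no value was left out. Both columns had a median of 0. Pearson's r between the arrays over all spots was 0.068. Symbols came from the platform annotation (249 spots with 1 symbol, 3639 with none, 0 with several); the 6 gene identifiers were all found in the pig RefSeq table with the same symbol. No sequence or coordinate was used.

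The value per gene was the mean of 3 spots. Means were compared with 0 by limma 3.58.1 (R 4.3.3; intercept, eBayes, two-sided, Benjamini-Hochberg at 0.05) over 83 genes, and separately over 3888 spots; the fit was tested on simulated data. Python 3.11.15, numpy 2.4.6, pandas 2.3.3 and matplotlib 3.10.9 were used. The number of arrays, 2, limits the precision; spot brightness was not used here.

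The genes and lists were chosen with earlier results of these data known. Genes named were the 6, the 2 named genes nearest to each, the other translation genes of a list, and TUBB and YWHAZ where left out. The other genes that passed (C1QB, COX6B and CPE) are not described. Alternatives changed the centring, spot summary, exact zeros, spread, sign of array 2, moderation or features fitted; leaving out 1 spot per gene, and turning array 2 for differences between arrays, were added after seeing the data.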

Additional observations from a re-analysis of the deposited data

How the results depend on the processing

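No paired analysis was possible because both arrays belong to 1 group. The 5 of 83 named genes that passed, TPT1 among them, became 4 with robust eBayes. They became 0 with either centring, local centring, the median of 3 spots, equal spread, no moderation, all 1296 runs of 3 spots fitted together, or 1 spot of each gene left out. With exact zeros left out, or with array 2 turned, 1 gene passed, and it was not TPT1 (adjusted p = 0.071 and 0.99). Thus 0 of the 6 genes passed in 12 of 13 alternatives. With the sign of array 2 turned, the means became 0.10 for RPS18, 0.051 for RPS29, 0.035 for RPS3A, 0.0033 for RPSA and 0.082 for TPT1. RPS18 also became positive with equal spread (0.0059) and without the second spot (0.0052), and RPS26 with centring on the named genes (0.0021), the median of 3 spots (0.011) and without the second spot (0.022). The median size of 0.085 became 0.10 with centring on spots 1 to 2595, 0.11 with local centring and 0.067 with array 2 turned, and 0.10 to 0.12 without replicate 1 or 2. The count of genes with 1 sign on both arrays, 4, became 2 with array 2 turned. The spot-level count of 0 in limma was 0 in 7 of 7 alternatives. An unadjusted p under 0.05 was reached by 56 to 552 spots there and by 412 as reported.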

Other observations

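The place of a spot within its run of 3 was compared after the values had been seen. The second spot lay below the mean of its gene in 4 of the 6 genes on array 1 and in 4 of 6 on array 2. Among the other 77 named genes this was so in 37 on array 1 and 47 on array 2. The first spot lay below the mean of its gene in 1 of the 6 genes on array 2, which was TPT1, and in 33 of the other 77. Spots of 1 gene are neighbours on the array and are no replicates of the sample, so these counts carry no test.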
